A study of Mus musculus with 6 samples.

Results

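The genes described here are 36 mouse transcription factor genes of 5 homeobox or paired box families, chosen by name alone from the promoter arrays of a chromatin immunoprecipitation study. They were all genes whose symbol on the arrays was of the form Pax1, Lhx2, Six2, Irx1 or Nkx1-2, Lhx1 left out. They comprised 9 Pax, 5 Lhx, 10 Nkx, 6 Six-family and 6 Irx genes with 1511 probes, of 17094 genes and 474380 probes in all. Nkx2-1 and Nkx3-2 lie on the arrays under the older names Titf1 and Bapx1 and are not among the 36. The study hybridised DNA from undifferentiated R1 cells, a mouse embryonic stem (ES) cell line grown without feeder cells in serum replacement with leukemia inhibitory factor, with no further treatment. Chromatin was cross-linked with formaldehyde and precipitated with an antibody to SMAD1/5, SMAD2 or SMAD4, and each precipitate was set against the whole cell extract (input) of its own experiment. Each antibody had 1 experiment, spread over 2 arrays that carry different probes, so no value has a replicate and no difference could be tested. An SD given here is the spread over probes of 1 array, not over experiments. The extraction protocol of the SMAD2 samples names an antibody to Smad1/5, whereas their titles and other labels name Smad2, and they are called SMAD2 here after the latter.

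SMAD proteins carry signals of the TGF-beta family into the nucleus. Receptors for bone morphogenetic proteins activate SMAD1 and SMAD5, receptors for Activin and Nodal activate SMAD2, and both groups act on DNA together with SMAD4. Pax proteins bind DNA through a paired domain, Lhx proteins are LIM-homeodomain factors, Nkx proteins are homeodomain factors of the NK class, Six-family proteins act with Eya cofactors, and Irx proteins belong to the Iroquois group. These factors pattern the neural tube, eye, ear, heart, kidney and endocrine organs of the embryo. Many of them are known to be held silent in ES cells by Polycomb proteins at CpG-rich promoters, and many respond to bone morphogenetic protein or Nodal signals later in development. The arrays measured precipitated DNA only, and the level of the genes' RNA was not analysed here.

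The promoters of the genes are described first, because the arrays tile these regions and because SMAD proteins are known to contact short sequences in them. RefSeq promoters on the GRCm38.p6 build (250 bases before to 50 after a start) were matched by symbol for 27 of the 36 genes, with 34 promoters. Their median GC content was 59.8%, against 52.7% over 32851 promoters of all genes, and their median number of CpG dinucleotides per 100 bases was 5.7 against 2.3. The SMAD box CAGAC, searched on both strands, was in 24 of the 34 (70.6%, against 49.6% of all promoters). The motif GGCNCC was in 23 (67.6% against 55.4%), and GGCGCC, a form of the same motif that it therefore includes, was in 7 (20.6% against 11.9%). The palindrome GTCTAGAC was in 1, a promoter of Pax2 (2.9% against 0.2%). A match describes these letters only and is not a bound site. The 6 sequences below are the 250 bases before the start, 5′ to 3′ on the gene's strand, with every match to CAGAC or to GGCNCC and the match to GTCTAGAC, on either strand, in capitals. Irx2, Six6, Six5, Pax1 and Lhx9 are shown as examples of genes with high or low windows described further on, and Pax2 because of the palindrome. All 6 were chosen after their values or sequences were seen.
Irx2 (chr13:72628570-72628819, plus strand): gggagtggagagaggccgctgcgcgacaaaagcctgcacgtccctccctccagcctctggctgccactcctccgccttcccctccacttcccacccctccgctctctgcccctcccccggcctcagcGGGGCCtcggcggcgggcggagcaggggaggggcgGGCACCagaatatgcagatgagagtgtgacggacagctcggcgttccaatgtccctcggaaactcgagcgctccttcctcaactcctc
Six6 (chr12:72939632-72939881, plus strand): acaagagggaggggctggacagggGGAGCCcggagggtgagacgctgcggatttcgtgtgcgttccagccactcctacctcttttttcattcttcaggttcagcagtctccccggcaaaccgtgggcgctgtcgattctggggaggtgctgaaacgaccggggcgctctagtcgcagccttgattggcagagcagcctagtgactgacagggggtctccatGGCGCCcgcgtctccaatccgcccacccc
Six5 (chr7:19094294-19094543, plus strand): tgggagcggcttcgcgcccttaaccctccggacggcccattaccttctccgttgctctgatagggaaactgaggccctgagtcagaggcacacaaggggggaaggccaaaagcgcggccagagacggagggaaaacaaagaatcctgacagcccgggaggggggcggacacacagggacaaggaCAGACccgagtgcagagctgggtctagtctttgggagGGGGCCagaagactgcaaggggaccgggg
Pax1 (chr2:147364744-147364993, plus strand): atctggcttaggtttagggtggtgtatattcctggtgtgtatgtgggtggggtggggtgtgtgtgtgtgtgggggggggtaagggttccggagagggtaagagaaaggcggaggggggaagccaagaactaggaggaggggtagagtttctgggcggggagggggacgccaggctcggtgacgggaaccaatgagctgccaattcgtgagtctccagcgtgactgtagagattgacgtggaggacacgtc
Lhx9 (chr1:138842445-138842694, minus strand): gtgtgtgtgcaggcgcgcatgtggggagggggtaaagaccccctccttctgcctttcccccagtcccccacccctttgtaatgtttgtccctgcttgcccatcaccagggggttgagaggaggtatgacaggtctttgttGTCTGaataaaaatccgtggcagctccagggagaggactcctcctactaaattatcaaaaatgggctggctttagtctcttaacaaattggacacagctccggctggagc
Pax2 (chr19:44746351-44746600, plus strand): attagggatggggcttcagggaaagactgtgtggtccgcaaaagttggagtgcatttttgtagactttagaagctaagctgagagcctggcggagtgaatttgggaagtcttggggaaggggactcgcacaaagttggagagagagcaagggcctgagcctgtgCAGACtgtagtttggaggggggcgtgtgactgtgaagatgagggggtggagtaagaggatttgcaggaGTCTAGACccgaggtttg

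The array values at the annotated starts of these genes, averaged over probes between -250 and 250 bp, can be set beside the sequences, although no label or header names the genome build of the array positions. Log2 ratios of immunoprecipitate over input, centred so that each array's median is 0, are used throughout. At Irx2, whose sequence holds a pair of GGCNCC matches and no CAGAC, the mean ratio was -1.71 ± 0.22 (SD, 4 probes) with SMAD1/5, 0.12 ± 0.35 with SMAD2 and -0.26 ± 0.45 with SMAD4. At Six6, with the GGCGCC form, it was -0.92 ± 0.09 (3 probes), 0.54 ± 0.78 and -1.58 ± 0.03 in the same order. At Six5 it was -2.60 ± 0.73 (2 probes), -0.82 ± 0.28 and 0.26 ± 0.31. None of these 3 starts had a ratio clearly above the array median with any antibody. Pax1, whose sequence before the start holds none of the motifs, gave -1.73 ± 0.12 (3 probes), -0.14 ± 0.21 and 0.03 ± 0.46. Lhx9, with 1 CAGAC match, gave -0.90 ± 1.67 (5 probes), -0.09 ± 0.46 and -0.60 ± 0.77. No value is set beside the Pax2 sequence, because RefSeq gives this gene 3 promoters and the array's start was not matched to one of them. For the other 5 genes, which have 1 RefSeq promoter each, that the array's start is the RefSeq start was not tested. The array's start of each of these 5 genes lay below the array median with SMAD1/5. So did the median over all genes between -250 and 250 bp (-0.65). The RefSeq promoters counted above also run past the start, and in them Pax1 and Irx2 each hold 1 CAGAC match. Each of the 5 promoters thus holds a motif, so starts with and without one cannot be compared here.

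SMAD windows over the 36 genes were scored as follows. The ratios of all probes within 500 bp of a probe were averaged where at least 3 were present, and the distance of this window from the median window was divided by a robust SD to give z. A gene was called enriched where a window reached a z of 4 with at least 2 probes above the array's 95th percentile, and called low where the mirror image held. All 36 genes had windows, with a median of 41 per gene, against 26, 25 and 26 over all genes with SMAD1/5, SMAD2 and SMAD4. More windows per gene give more chances of a high or low one, which bears on each count below. A call asked for a window ratio of about 24.4-fold and 18.0-fold on the SMAD1/5 arrays, against 4.90-fold and 4.68-fold with SMAD2 and 4.94-fold and 4.89-fold with SMAD4. Input signal was well above background at 74.9% and 88.4% of the genes' probes on the SMAD1/5 arrays, 91.9% and 90.2% with SMAD2 and 99.9% and 100% with SMAD4, and no probe of these genes was saturated. With 1 array per probe and antibody, the number of arrays limits the precision of every value.

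Almost none of the patterning genes carried an enriched window. With SMAD1/5, 0 of the 36 were enriched, and 0.0% of all 16776 genes with windows were. With SMAD2, 0 of the 36 were enriched, against 0.0656% of 16772 genes. With SMAD4, 1 of the 36, Irx6, was enriched, against 2.49% of 16776 genes. Low windows were as rare: 1 gene, Irx1, had one with SMAD1/5 against 2.62% of all genes, while 0 did with SMAD2 (0.334% of all genes) and 0 with SMAD4 (0.0477%). Both counts of 1 lie near the background and are not results about the genes as a group. Milder windows, with a z of at least 2, were present in 4 genes with SMAD1/5 (11.1% of the 36, against 5.93% of all genes), 9 with SMAD2 (25.0% against 18.3%) and 12 with SMAD4 (33.3% against 40.0%). Counted per window, where the larger number of windows does not matter, the share with a z of at least 2 was lower than over all windows with every antibody: 0.34% against 0.41%, 1.16% against 1.67% and 3.23% against 5.69%. The median of the genes' highest z was 1.20, 1.65 and 1.77, against 1.26, 1.35 and 1.74 over all genes. The median of the genes' mean ratios was -0.21, 0.06 and 0.03, against -0.22, 0.01 and 0.10.

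**Figure D1:**
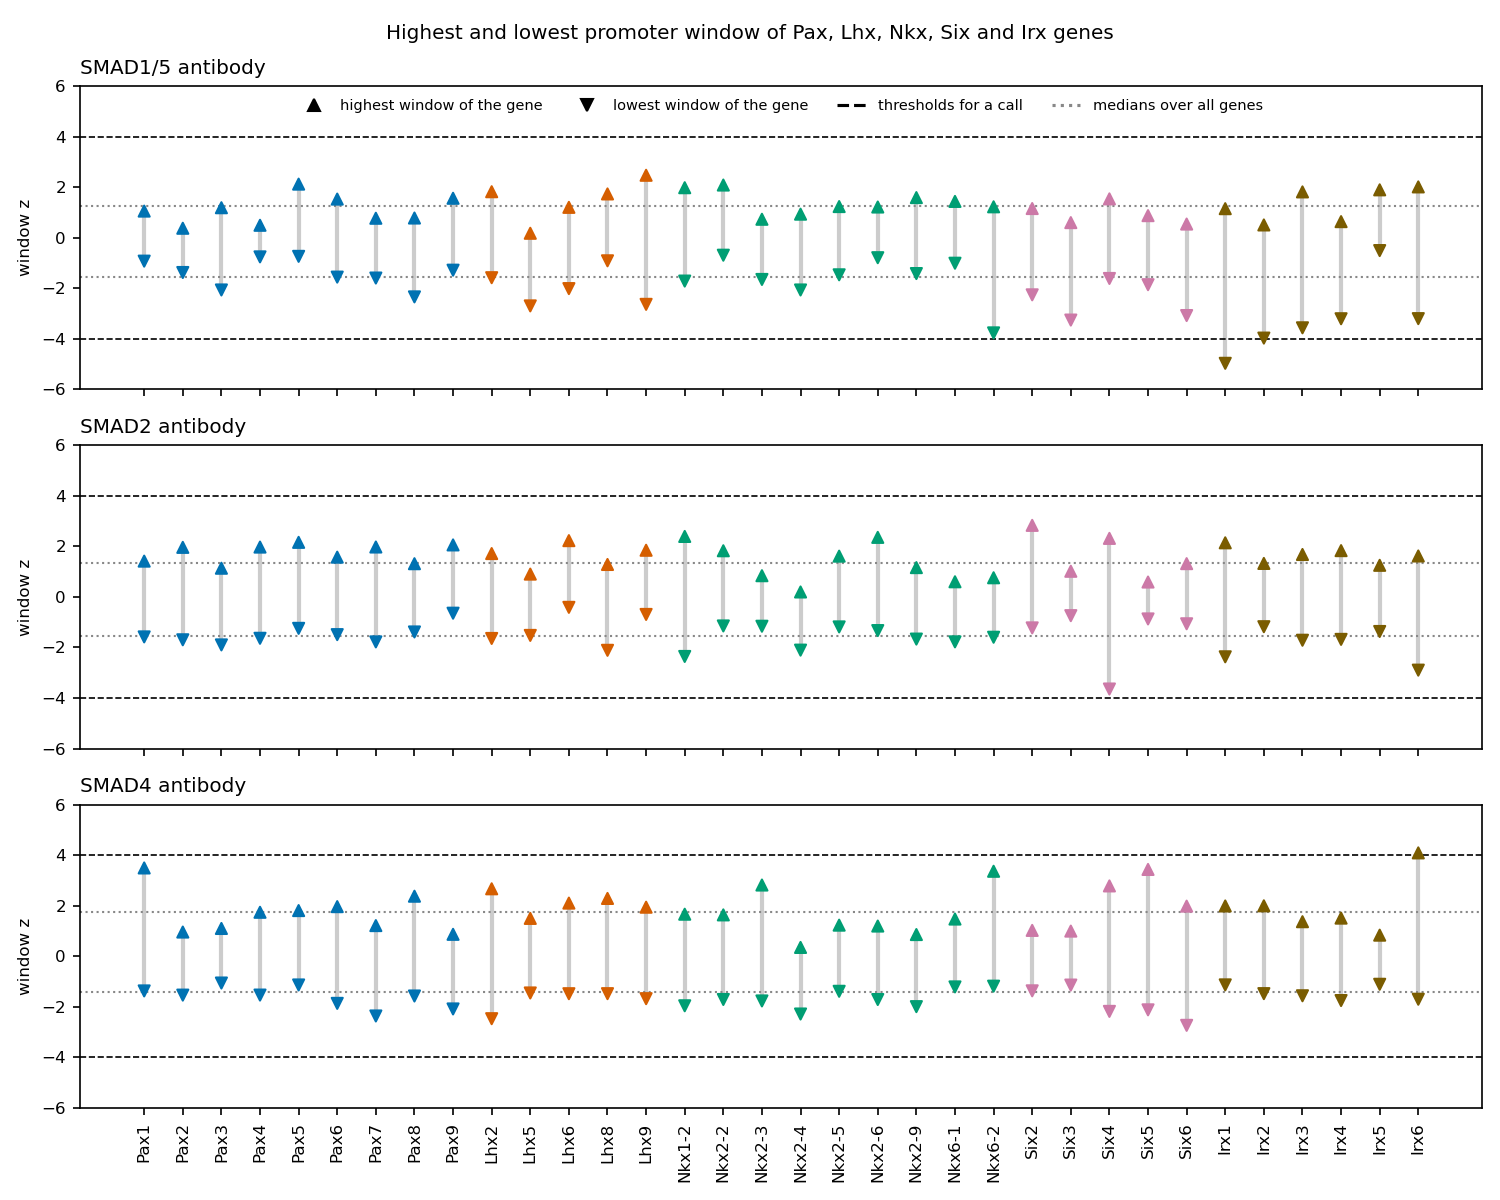
Highest (upward triangle) and lowest (downward triangle) window z of 34 of the 36 genes with each antibody, coloured by family, with the thresholds of 4 and -4 dashed and the medians over all genes dotted. Irx6 with SMAD4 (4.09) is the only point above the upper threshold, and Irx1 with SMAD1/5 (-4.97) the only point below the lower one.

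Irx6, an Iroquois homeodomain gene at the end of the chromosome 8 Irx cluster, held the enriched window. The window lay at chr8:91265220-91266006, at -2043 bp from the annotated start in sequence that the array annotates as promoter. Its mean ratio was 2.22 ± 0.95 (SD, 5 probes) with SMAD1/5, -1.38 ± 0.79 with SMAD2 and 2.35 ± 1.19 with SMAD4. The corresponding z values were 2.01, -2.50 and 4.09. The region was thus high with SMAD1/5 and SMAD4 and low with SMAD2, and all 5 probes had the same sign within each antibody. With SMAD4 the probes ran from 0.78 to 3.50, with SMAD1/5 from 0.87 to 3.19 and with SMAD2 from -2.72 to -0.74. The channels differed in what moved: with SMAD4 the immunoprecipitate stood at -0.06 and the input at -2.30, a difference of -2.35 from the mean of the other inputs, while the immunoprecipitate differed from the other immunoprecipitates by -0.23. With SMAD1/5 the immunoprecipitate stood at 0.93, 1.25 above those of the other antibodies, and the input at -0.62, 0.18 above the others. The high SMAD4 ratio therefore went with a dim input on the SMAD4 array, and the high SMAD1/5 ratio with a bright immunoprecipitate. Irx6 was also the only one of the 36 with windows of z at least 2 from a pair of antibodies within 500 bp of each other. The share of all genes with such a pair was not determined, so this count does not set Irx6 apart. Its SMAD1/5 z of 2.01 fell below 2 with the authors' deposited ratios (1.83), the input trend removed (1.88), bright input probes (1.78) and chromosome centring (1.66). The SMAD4 call held with only bright input probes (z 4.10), with chromosome centring (4.11) and with 250 bp windows (4.82). It was lost with normexp background correction (2.41), the authors' deposited ratios (3.39), the input trend removed (2.53), the mean of the 3 inputs as denominator (2.15) and 1000 bp windows (2.61).

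The remaining Irx genes gave no enriched window with any antibody. Irx1, on chromosome 13 and known from heart and neural patterning, held the low SMAD1/5 window, at chr13:68898149-68898537 and -5750 bp from the start. Its mean ratio was -5.39 ± 1.88 (SD, 3 probes) with SMAD1/5, -0.95 ± 0.06 with SMAD2 and -0.13 ± 0.64 with SMAD4, so that SMAD1/5 alone was far from the median. The SMAD1/5 input there stood at 5.37, which is 5.61 above the mean of the other inputs, whereas the immunoprecipitate (-0.46) differed by 0.33 from the others. The z of -4.97 became -2.58 with the input trend removed, -2.24 with the mean of the 3 inputs and -3.31 with 1000 bp windows, none of which meets the threshold. The call held with normexp (-6.09), the authors' deposited ratios (-6.95), bright input probes (-4.80), 250 bp windows (-4.15) and chromosome centring (-5.14). Irx2 came next with SMAD1/5, at -3464 bp with a z of -3.98, just short of the threshold, and it was called low with normexp (-4.72), the authors' deposited ratios (-5.25), bright input probes (-4.30) and chromosome centring (-4.12). Its window ratio was -4.32 ± 1.91 (5 probes) with SMAD1/5, -0.39 ± 0.73 with SMAD2 and 0.88 ± 1.71 with SMAD4. Irx3 (-3.57), Irx4 (-3.21) and Irx6 (-3.20) also went below a z of -3 with SMAD1/5, and Irx5 was the only Irx gene that did not (-0.51). The low Irx6 window, at -443 bp, is a different one from its high window and had an input 4.87 above the other inputs. Between the chromosome 8 genes (Irx3, Irx5, Irx6) and the chromosome 13 genes (Irx1, Irx2, Irx4), the median gene mean ratio was -0.13 against -0.73 with SMAD1/5, 0.07 against 0.00 with SMAD2 and 0.00 against 0.20 with SMAD4. The chromosome 8 genes lay on array 1 and the chromosome 13 genes on array 2, and each array was centred on its own median. Cluster and array can therefore not be told apart in these medians. Chromosome 8 as a whole had a median SMAD1/5 ratio of 0.40, against 0.06 for chromosome 13, and the part of this in the Irx values was not tested.

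**Figure D2:**
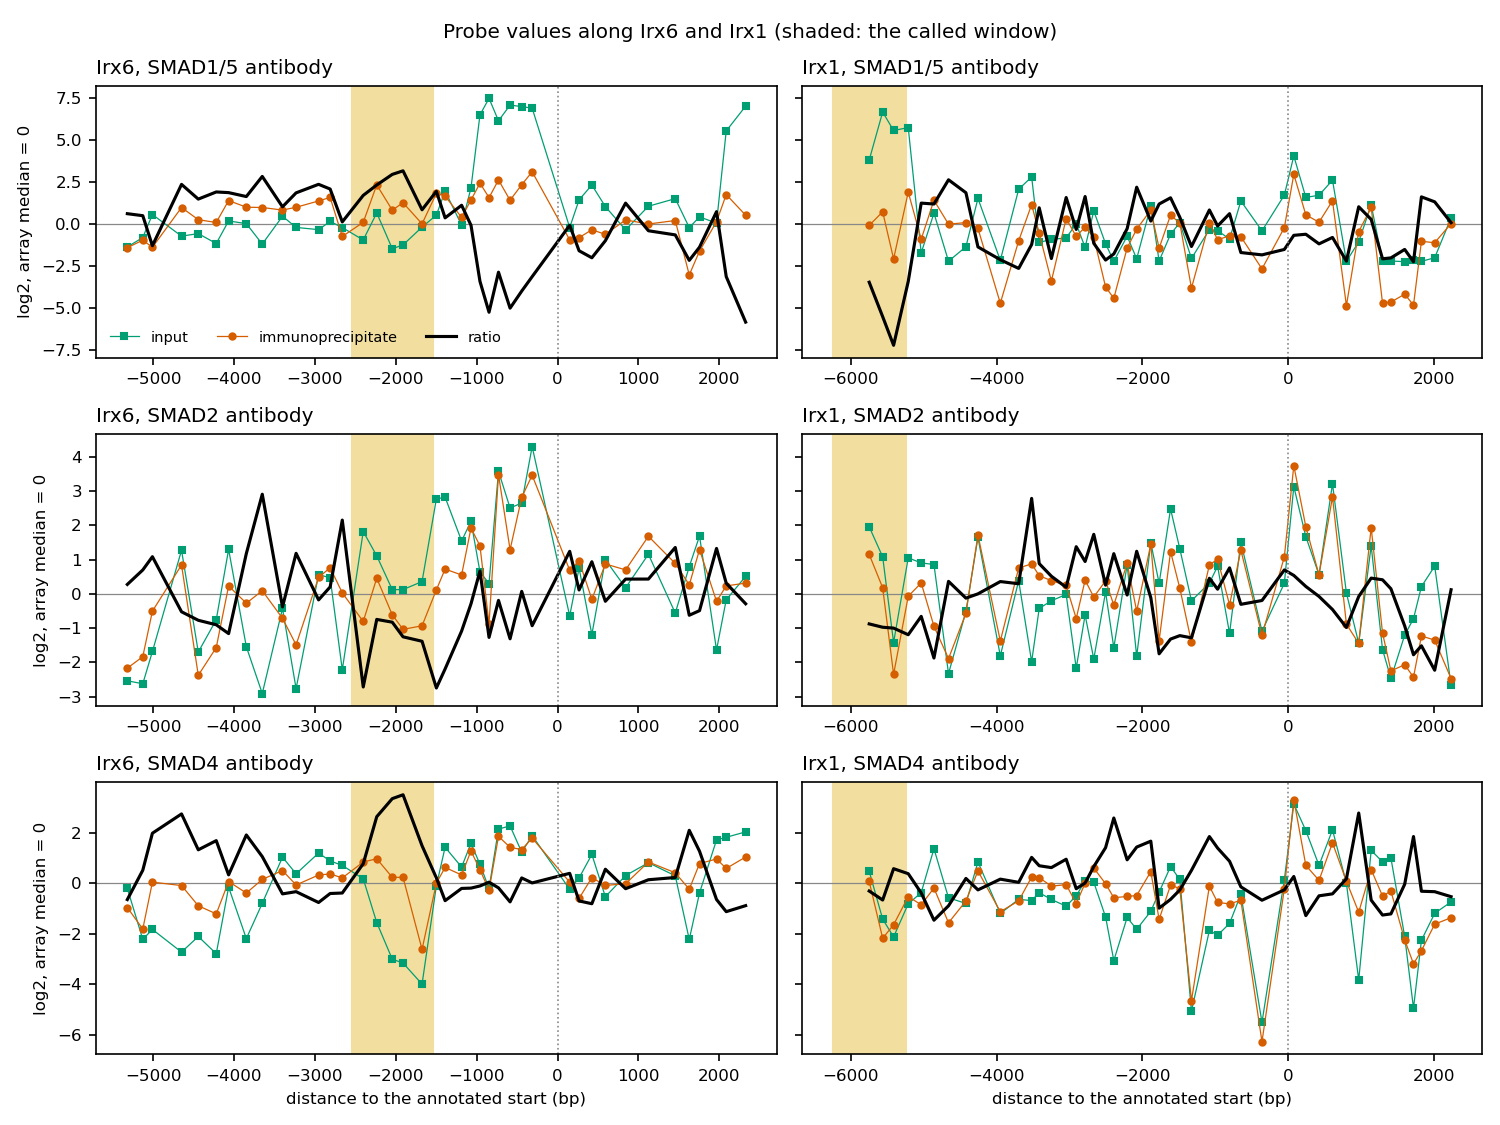
Log2 input, immunoprecipitate and ratio of each probe along Irx6 (left) and Irx1 (right) against the distance to the annotated start in bp, for the 3 antibodies; the shaded band marks 500 bp on either side of the window centre. The Irx6 ratio peaks in the band with SMAD1/5 and SMAD4 and dips with SMAD2, and the SMAD1/5 ratio of Irx1 falls where the input rises to 6.69.

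The 6 Six-family genes, which act in eye, ear, muscle and kidney development, had no call. Six2, known for keeping kidney progenitors, had the highest SMAD2 window of the 36 (z 2.83), at 1088 bp inside the gene. Its ratio there was -2.14 ± 2.63 (SD, 4 probes) with SMAD1/5, 1.59 ± 0.56 with SMAD2 and 0.35 ± 1.10 with SMAD4. The SMAD2 probes were all above the median (1.06 to 2.28). The input there differed by -2.30 from the mean of the other inputs, and the immunoprecipitate was 0.52 above the mean of the others. The SMAD2 immunoprecipitate (0.06) was above that of SMAD1/5 (-1.59) but below that of SMAD4 (0.66). The gene's highest SMAD2 z became 1.53 with normexp, 1.21 with the mean of the 3 inputs and 1.72 with 1000 bp windows. Six5 had a high SMAD4 window at 496 bp (z 3.43), where the ratio was -0.69 ± 1.21 (3 probes) with SMAD1/5, 0.15 ± 0.03 with SMAD2 and 1.99 ± 1.43 with SMAD4. The SMAD4 input in this window was dim (-2.65), and the gene's highest z became 1.38 with bright input probes, 1.14 with normexp, 0.85 with the mean of the 3 inputs and 1.80 with 1000 bp windows. Six4 held both the lowest SMAD2 window of the 36 (z -3.64, at -3600 bp) and mild high windows with SMAD2 (2.32, at -7799 bp) and SMAD4 (2.78, at 310 bp). In the low Six4 window the ratio was 0.31 ± 1.87 (3 probes), -1.96 ± 0.52 and 0.38 ± 0.45 with SMAD1/5, SMAD2 and SMAD4, and only SMAD2 had every probe below 0. Six6, an eye and pituitary gene, had the lowest SMAD4 window of the 36 (z -2.74), at 148 bp. Its ratio was -2.50 ± 1.73 (6 probes) with SMAD1/5, 0.44 ± 0.74 with SMAD2 and -1.44 ± 0.21 with SMAD4, and the SMAD4 probes kept within -1.62 and -1.05. Six3, a forebrain and eye gene, had a SMAD1/5 window at a z of -3.26.

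Among the Nkx genes, Nkx6-2, a gene of the ventral neural tube, had a SMAD4 window at -5238 bp with a z of 3.36. The ratio there was 1.10 ± 1.67 (SD, 5 probes) with SMAD1/5, -0.57 ± 0.78 with SMAD2 and 1.95 ± 1.03 with SMAD4, with the SMAD4 input at -1.63 and the immunoprecipitate at 0.20. The gene's highest SMAD4 z became 2.12 with normexp and 0.98 with the mean of the 3 inputs. The same gene had a SMAD1/5 low window with a z of -3.77 in which the input was 6.34 above the other inputs, the largest excess among the 36 lowest SMAD1/5 windows. Nkx2-2, another ventral neural tube gene, had a SMAD1/5 window at -2518 bp with a z of 2.08, where the ratio was 2.31 ± 0.24 (5 probes), against 0.42 ± 1.07 with SMAD2 and -0.33 ± 0.66 with SMAD4. Its 5 SMAD1/5 probes kept within 1.92 and 2.55, and the immunoprecipitate was 1.59 above those of the other antibodies on average. The SMAD1/5 input there (-0.12) lay between those of SMAD2 (-0.91) and SMAD4 (0.68). The gene's highest SMAD1/5 z became 4.12, past the threshold, with normexp. It fell below 2 with the authors' deposited ratios (1.99), the input trend removed (1.87), bright input probes (1.95) and 250 bp windows (1.63). It stayed above 2 with the mean of the 3 inputs (2.34), 1000 bp windows (2.10) and chromosome centring (2.12). Nkx1-2 (z 2.39) and Nkx2-6 (2.36) had mild SMAD2 windows, and Nkx2-3 (2.81) a mild SMAD4 window. Nkx2-5, the early heart gene, stayed between -1.47 and 1.61 with every antibody. Nkx6-1, a pancreas and motor neuron gene, stayed between -1.78 and 1.47.

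Nkx2-4 was singled out after its values were seen. It had the lowest mean immunoprecipitate of the 36 with each antibody: -1.25 with SMAD1/5, -1.05 with SMAD2 and -1.28 with SMAD4. These are the 8.66th, 7.95th and 9.17th percentile of all genes. Its input means were 0.12, -0.60 and -0.81, and its mean ratios over 40 probes were -0.70 ± 1.73, -0.53 ± 0.67 and -0.35 ± 0.87 (SD over probes). Input was well above background at 42.5% of its SMAD1/5 probes, which limits the SMAD1/5 ratio and z. The gene was low in each immunoprecipitate, and its highest windows (z 0.93, 0.19 and 0.35) were the lowest among the 36 genes' highest windows with SMAD2 and with SMAD4.

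**Figure D3:**
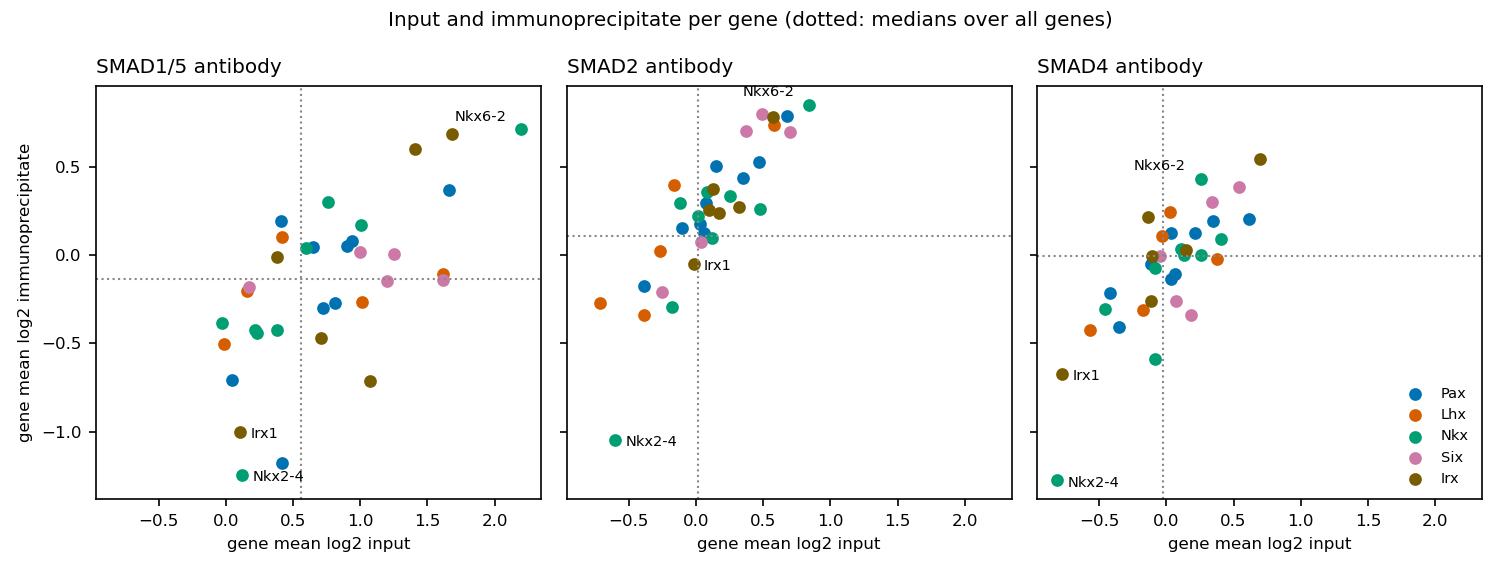
Mean log2 input (x axis) and mean log2 immunoprecipitate (y axis) of 34 of the 36 genes with each antibody, coloured by family, with the medians over all genes dotted. Nkx2-4 is the lowest point on the y axis in every panel (-1.25, -1.05 and -1.28).

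Among the Lhx genes, Lhx9, which acts in gonad and limb development, had the highest SMAD1/5 window of the 36 (z 2.47), at -4026 bp. The ratio there was 2.77 ± 0.59 (SD, 4 probes) with SMAD1/5, -0.12 ± 1.88 with SMAD2 and -0.01 ± 1.24 with SMAD4, and the immunoprecipitate was 1.36 above those of the other antibodies. Input was well above background at 59.5% of the gene's SMAD1/5 probes. Its highest z became 1.01 with bright input probes and 1.47 with 250 bp windows, below Pax5 (1.93 and 2.18) and Nkx2-2 (1.95 and 1.63) under the same settings. Lhx2, a forebrain and eye gene, had a window at -656 bp that was its highest with SMAD1/5 and its lowest with SMAD4. The ratio in that window was 1.99 ± 0.12 (3 probes) with SMAD1/5, 0.12 ± 0.20 with SMAD2 and -1.31 ± 0.10 with SMAD4 (z 1.82, 0.15 and -2.47). The probe ranges of the 3 antibodies did not overlap there, but the window was picked as extreme with SMAD1/5 and SMAD4, and its probes are not replicates. The SMAD1/5 input in the window was -0.62, and input was well above background at 67.6% of the gene's SMAD1/5 probes. Lhx6, a gene of forebrain interneurons, had the family's highest SMAD2 window (2.23) and Lhx2 its highest SMAD4 window (2.67, at -5207 bp). Lhx5 had the lowest of the 36 highest SMAD1/5 windows (0.17) and a low window at a z of -2.70, and Lhx8 had a mild SMAD4 window (2.28).

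Among the Pax genes, Pax1, a gene of the sclerotome and the pharyngeal pouches, had a SMAD4 window at -4882 bp with a z of 3.49, the second highest of the 36 with that antibody. The ratio was -0.29 ± 1.19 (SD, 5 probes) with SMAD1/5, -0.20 ± 0.36 with SMAD2 and 2.02 ± 1.00 with SMAD4, whose probes ran from 0.50 to 3.05. The input differed by -1.49 and the immunoprecipitate by 0.95 from the mean of the other arrays. The SMAD4 immunoprecipitate (0.11) lay between those of SMAD1/5 (-2.10) and SMAD2 (0.43), so it was not above both. The SMAD4 input (-1.795) lay below those of SMAD1/5 (-1.14) and SMAD2 (0.54). With 1000 bp windows Pax1 passed the threshold (4.25) and Irx6 did not, and with the mean of the 3 inputs the Pax1 value was 1.85. Pax5, a B cell and midbrain gene, had mild windows with SMAD1/5 (2.12, at -1877 bp) and SMAD2 (2.16, at 243 bp), which are different regions. In the first the ratio was 2.35 ± 0.74 (7 probes) with SMAD1/5, 0.39 ± 0.81 with SMAD2 and 0.16 ± 0.64 with SMAD4, and the immunoprecipitate was 1.81 above the others, the largest such excess among the 36 SMAD1/5 peak windows. Pax9 (2.06 with SMAD2) and Pax8 (2.37 with SMAD4) had mild windows. Pax2, Pax3, Pax4, Pax6 and Pax7, genes of the kidney, neural crest, pancreas, eye and muscle, had no window with a z of 2 with any antibody, their highest values lying between 0.37 (Pax2, SMAD1/5) and 1.97 (Pax4 and Pax7, SMAD2).

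The channels that moved in the extreme windows differed by antibody. In the 8 genes with a SMAD1/5 window at a z of -3 or less (Irx1, Irx2, Irx3, Irx4, Irx6, Nkx6-2, Six3 and Six6), the input was 2.97 to 6.34 above the mean of the other inputs in all 8, and the immunoprecipitate was above the others in 4 and below in 4. A z of -2 or less was reached by 16 genes with SMAD1/5 (44.4%, against 32.1% of all genes), 6 with SMAD2 (16.7% against 30.0%) and 7 with SMAD4 (19.4% against 18.2%). Counted per window, where the larger number of windows does not matter, the share was 3.98% with SMAD1/5, close to the 3.86% of all windows. With SMAD2 it was 1.43% against 3.54%, and with SMAD4 1.21% against 1.75%. Among the 4 genes with a SMAD1/5 peak of at least 2 the immunoprecipitate was 1.25 to 1.81 above the others in all 4, and the input was above in 2 and below in 2. Among the 12 such genes with SMAD4 the input was below the others in all 12 (-2.55 to -0.16), and the immunoprecipitate was above in 6 and below in 6. Among the 9 with SMAD2 the input was below in all 9 (-2.30 to -0.80), and the immunoprecipitate was above in 8. Above and below refer here to the mean of the other antibodies, so a value can lie between them. For example, the SMAD2 immunoprecipitates of Six2 (0.06) and Pax5 (0.53) were below those of SMAD4 (0.66 and 0.71). Each extreme window counted here was picked as the highest or lowest ratio of its gene. The direction in which a channel stands within such a window is therefore not an independent measurement.

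Gene by gene, the immunoprecipitates resembled each other and the ratios did not. Over the 36 genes the mean immunoprecipitate correlated at r = 0.88 between SMAD2 and SMAD4, 0.70 between SMAD1/5 and SMAD4 and 0.58 between SMAD1/5 and SMAD2 (Spearman 0.86, 0.63 and 0.49). The mean input correlated at 0.48, 0.51 and 0.75 in the same order of pairs. The mean ratio correlated at 0.07, -0.03 and 0.08. These are descriptions across genes, which share probes, base composition and arrays between antibodies and are not independent replicates.

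Along the promoters, the ratio of the 36 genes was lower at the start than upstream with SMAD1/5, by more than over all genes, and the size of this difference depended on the background correction. Per gene, the mean ratio between -250 and 250 bp was compared with that between -4000 and -2000 bp, which was possible for 34 of the genes. With SMAD1/5 the median difference was -0.82 (SD over genes 1.08), against -0.49 over 12988 genes, and it was above 0 in 6 of the 34 (17.6%) against 38.3% of all genes. With SMAD2 it was -0.14 against 0.06, and above 0 in 15 (44.1% against 53.6%). With SMAD4 it was 0.21 against -0.17, and above 0 in 21 (61.8% against 41.6%). The SD over genes exceeded the size of the 36 genes' median with each antibody, and the difference from all genes was not tested. Among the largest falls toward the start with SMAD1/5 were those at Pax5 (-3.87, with 1 probe at the start) and Nkx6-1 (-2.18). The largest rises with SMAD4 were at Pax4 (1.77) and Six3 (1.63, with 1 probe at the start). At the Pax4 start the SMAD4 ratio was 1.20 ± 1.55 (SD, 3 probes). By family, the SMAD1/5 medians were -1.04 (Pax), -0.30 (Lhx), -1.08 (Nkx), -1.52 (4 Six-family genes) and -0.48 (Irx). With SMAD4 they were 0.39, -0.34, 0.28, -0.69 and -0.47, so that only the Pax and Nkx medians were above 0. The median difference of the input between start and upstream was 1.29 with SMAD1/5, 0.83 with SMAD2 and -0.04 with SMAD4, against 0.99, 0.77 and 0.87 over all genes. The median difference of the immunoprecipitate was 0.37, 0.39 and 0.16, below the 0.66, 0.79 and 0.67 of all genes with every antibody, and it exceeded the median of all genes in 13, 15 and 12 of the 34. The SMAD4 difference turned to -0.04 with the input trend removed (0.06 over all genes) and to -0.42 with the mean of the 3 inputs (-0.24). With SMAD4 the 36 genes thus lay above all genes in the main setting and below them under both of these alternatives. The SMAD2 difference turned to 0.03 under both, against 0.20 and -0.07 over all genes. The SMAD1/5 one was -0.44 and -0.46, against 0.09 and -0.26. With normexp the SMAD1/5 difference was -0.13 (above 0 in 14 of the 34), smaller in size than the SMAD2 one of -0.37, and the SMAD4 one was 0.01. Over all genes the normexp differences were 0.06 with SMAD1/5 (above 0 in 54.3%), -0.05 with SMAD2 and -0.03 with SMAD4. With the authors' deposited ratios the differences were -0.33, -0.10 and 0.06 with SMAD1/5, SMAD2 and SMAD4, against -0.12, 0.11 and -0.06 over all genes.

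**Figure D4:**
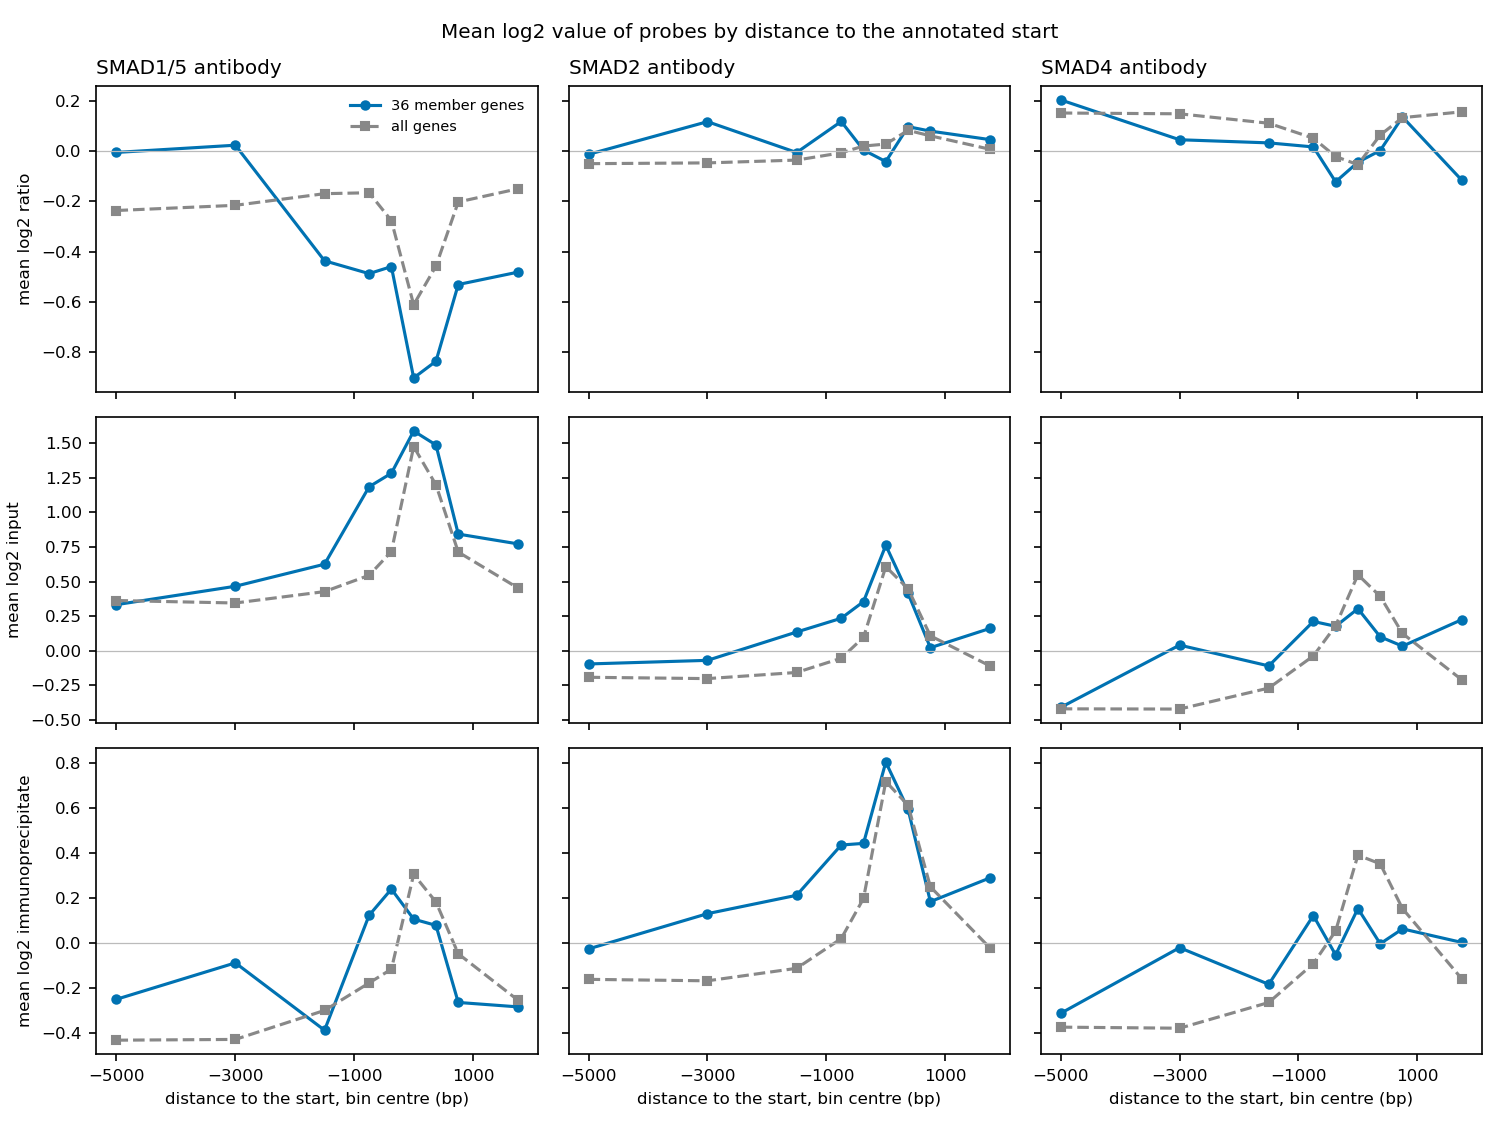
Mean log2 ratio, input and immunoprecipitate (rows) of probes by distance to the annotated start in bp, in 9 bins plotted at their centres, for the 36 genes (solid) and all genes (dashed) with each antibody. The SMAD1/5 ratio falls to -0.90 in the bin around the start in the 36 genes and to -0.61 over all genes.

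Other developmental regulators and the partners of these factors had no enriched gene. Of 33 Hox, 8 Msx and Dlx and 35 Fox genes and 20 genes of partner and cofactor families (Eya, Dach, Isl, Lmx, Ldb, Lmo and Tle), 0 were enriched with any antibody. Over all genes the share was 0.0% with SMAD1/5, 0.0656% with SMAD2 and 2.49% with SMAD4. The count of 0 lies near these shares and is not a result about the lists. With SMAD1/5, 1 of the Msx and Dlx genes and 1 of the partners had a low window, and 0 of the Hox and Fox genes did, against 2.62% of all genes. With SMAD4 a z of at least 2 was reached by 9 of the Hox genes, 2 of the Msx and Dlx genes, 15 of the Fox genes and 8 of the partners, against 12 of the 36 genes and 40.0% of all genes. With SMAD1/5 the counts were 6 (18.2%), 1 (12.5%), 2 (5.71%) and 1 (5.00%), against 5.93% of all genes, and with SMAD2 they were 5 (15.2%), 2 (25.0%), 10 (28.6%) and 2 (10.0%), against 18.3%. The median difference between start and upstream with SMAD1/5 was -0.02 for Hox, -0.37 for Msx and Dlx, -0.76 for Fox and -0.59 for the partners, against -0.82 for the 36 genes. With SMAD4 it was 0.11, -0.74, -0.45 and 0.07 in the same order, against 0.21. The immunoprecipitate difference was below that of all genes in each list with every antibody, so this was not particular to the 36. With SMAD1/5, SMAD2 and SMAD4 it was 0.25, 0.32 and 0.17 for Hox and 0.52, 0.58 and -0.40 for Msx and Dlx. For Fox it was 0.41, 0.01 and -0.14, and for the partners 0.37, 0.21 and 0.60.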

How the data were processed

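Each sample is a 2-colour Agilent promoter array. Per the file headers, the deposited scanner files hold spot intensities from Feature Extraction (9.1.3.1 for SMAD1/5 and SMAD2, 9.5.3.1 for SMAD4), red being the immunoprecipitate and green the input, and other columns with flags. The same dyes were used on every array, so dye and immunoprecipitation cannot be told apart. The deposited series table holds a log2 value per probe; its columns correlate at 0.74 to 0.95 with the scanner ratios, which sets its direction, while its scale and centring stay unknown. Per the submitters' processing notes limma was used.

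From the intensities, log2 of the processed red over green signal was computed, outlier spots were dropped (0.01% to 1.82% per array), and each array was centred on its median. Windows, z and calls are defined in the text and were tried on simulated ratios. The simulated noise was normal, independent between probes and had the SD of a SMAD4 array (0.99). The SMAD1/5 arrays, with SDs of 1.93 and 1.76, and dim inputs were not simulated, so the simulation does not bear on their calls. Genes are those the arrays name. The genes named are, per antibody, the called ones, the 4 highest and 2 lowest, the highest of each family, and windows that coincide between antibodies. The remaining genes were named after their values were seen. The 36 genes and the lists were chosen with earlier results of these data known. All 36 enter the counts and medians, and 2 of them are not reported one by one here. The alternatives were normexp correction (limma 3.58.1, offset 50, R 4.3.3), the authors' ratios, removal of the trend with input (200 bins), the mean of the 3 inputs, bright input probes, windows of 250 and 1000 bp, chromosome centring and a z of 3. numpy 2.4.6 and pandas 2.3.3 were used.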

Additional observations from a re-analysis of the deposited data

How the results depend on the processing

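No paired analysis was possible because each antibody has 1 sample per array. The SMAD1/5 enriched count of 0 became 5 (Irx3, Nkx2-2, Pax5, Pax6 and Six5) with normexp. The share of all genes called is given for the main setting only. Neither this count nor those below can therefore be set against a background, and they are not results about the genes as a group. The count of SMAD1/5 low genes, 1, became 10 with normexp, 6 with the authors' ratios, 0 with the input trend removed, the mean input or 1000 bp windows, 2 with bright probes, 250 bp windows or chromosome centring, and 8 at a z of 3. SMAD1/5 genes with a z of at least 2, 4 in number, became 19 with normexp, 8 with the mean input and 0 with bright probes. The median highest SMAD1/5 z of the 36 went from 1.20 to 2.01 with normexp, and that of all genes from 1.26 to 1.81. With SMAD2, 1 gene, Six4, was low at a z of 3, and the 9 genes with a z of at least 2 became 1 with normexp, 2 with the authors' ratios, 0 with the trend removed and 4 with the mean input. With SMAD4 the enriched count of 1 became 0 with normexp, the authors' ratios, the trend removed or the mean input and 3 at a z of 3, and the low count of 0 became 1 (Irx1) with the mean input. The 12 SMAD4 genes with a z of at least 2 became 6 with normexp, 5 with the trend removed, 4 with the mean input, 19 with 250 bp windows and 7 with 1000 bp windows. Of 336 values of single named genes under alternatives, 320 kept their side of the threshold, 8 lost a call and 8 gained one. All 8 losses were of the Irx6 call with SMAD4 or the Irx1 call with SMAD1/5, the only calls in the main setting. The other values were no calls to begin with, many of them far from the threshold, so the 320 do not measure how stable a call is. Medians that moved by less than 1 SD over the genes were counted as kept. The alternatives for the start against upstream were chosen after seeing the data. The cause of these changes was not tested. Dim SMAD1/5 inputs and 1 array per probe and antibody limit what can be read from these values.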
